A study of Mus musculus with 6 samples.

Results

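The 9 genes examined encode signalling partners of p62, the scaffold and autophagy receptor made by Sqstm1. They are the TRAF adaptors Traf1 to Traf6, the atypical protein kinases C Prkci and Prkcz, and the deubiquitinase Cyld. They were picked out of the deposited gene tables by symbol. All 9 were found among the 25526 genes listed, and all 9 passed the filter on low counts that left 12775 genes tested.

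RNA-seq was made from MOC2 cells, which are a murine line of oral squamous carcinoma, with 3 libraries of parental cells with wild-type p62 and 3 libraries of cells in which p62 was knocked out with CRISPR-Cas9. Both groups are the same line, grown in serum-containing medium with no added treatment, and the comparison asks how the transcriptome differs without p62. The series states 3 biological replicates per condition and that the libraries were prepared in parallel. Whether the knockout cells are 1 clone, several or a pool is not in the labels, and p-values measure the spread among these 6 cultures only.

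p62 carries a PB1 domain, through which it binds the PB1 domain of the atypical PKCs, and a short stretch that binds the TRAF domain of TRAF6. TRAF proteins dock on receptors of the TNF receptor and Toll/interleukin-1 families, and several act as ubiquitin ligases whose chains recruit the kinases upstream of NF-kB. CYLD cuts such chains and so opposes the signal, and p62 is known to bring CYLD to TRAF6. PKC iota and PKC zeta also act with PAR6 and PAR3 in epithelial cell polarity.

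Sqstm1 (ENSMUSG00000015837) was measured first as the check of the knockout, at the level of RNA and not of p62 protein. Sqstm1 stood at 1432, 1659 and 1792 TPM in parental replicates 1 to 3 and 103, 496 and 105 TPM in knockout replicates 1 to 3. All knockout libraries were below all parental ones, but knockout replicate 2 kept 32.4% of the parental mean in normalised CPM, against 6.41% and 6.90% in replicates 1 and 3. Its fitted difference was -2.71 ± 0.65 in log2 units (SE) at an edgeR adjusted p of 0.0480, a call that was lost in 7 of 14 other settings. In GENCODE M21 exons of Mrnip overlap 580 bases of its exons on the opposite strand, and Mrnip stood at 3.54 ± 0.558 and 2.66 ± 0.861 CPM (SD, n = 3 each).

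Libraries held 32821860 to 41763980 exon reads. Knockout replicate 2 stood apart across all genes. On the first principal component of log2 CPM (65.4% of the variance) it lay at -12.6, nearer to the parental libraries at -35.5 to -23.0. Knockout replicates 1 and 3 lay at 49.95 and 50.8. On the second component (23.2% of the variance) knockout replicate 2 lay at 40.4, beyond all other libraries, which lay at -29.3 to 9.11. Knockout replicates 1 and 3 were also the closest pair, with a chi-square per degree of freedom of 7.77 against 40.8 to 317 for other pairs of a group. The summed level of 6 epithelial markers was 5895, 3914 and 5886 TPM in knockout replicates 1 to 3 and 3369 to 3929 TPM in parental cells. Cdh1, Epcam, Krt8 and Krt18 were abundant, Krt14 was at 8.97 to 38.8 CPM, and Krt5 was at 0.0306 CPM or less in every library. Krt8 stood at 770 ± 101 TPM in parental and 1866 ± 732 TPM in knockout cells (SD, n = 3 each, edgeR adjusted p = 0.0471). Krt18 was higher in all knockout libraries but was not called (log2 fold change 0.38, edgeR adjusted p = 0.128). Epcam, Krt14 and Cdh1 overlapped between groups, with log2 fold changes of 0.44, 0.84 and -0.07 (edgeR adjusted p = 0.220, 0.267 and 0.758). Among the leukocyte markers Cd3e was at 0 in all libraries, and Ptprc and Itgam were at 0.237 CPM or less. The leukocyte sum was 39.2 to 43.0 TPM in parental and 6.82 to 9.01 TPM in knockout cells, mostly Cd68 (39.8 and 6.69 TPM on average). Other leukocyte markers did not fall with it. Csf1r overlapped between groups, at 1.91 ± 0.563 and 2.66 ± 1.46 CPM (SD, n = 3 each, edgeR adjusted p = 0.549). Ptprc averaged 0.0249 and 0.155 CPM and Itgam 0 and 0.0466 CPM, both higher in every knockout library but on a few reads. Endothelial markers summed to 0.287 to 0.611 and 0.247 to 0.350 TPM. Fibroblast markers summed to 4.29 to 5.08 and 1.20 to 1.53 TPM, mostly Pdgfra (3.13 and 0.898 TPM on average), with Lum at 0 throughout. Cd68 and Pdgfra were called lower in knockout cells (edgeR adjusted p = 0.00654 and 0.00934). The part of these shifts in the results was not tested.

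None of the 9 partner genes passed the test between parental and knockout cells. By edgeR, 0 were called at an adjusted p below 0.05, either higher or lower. Of all tested genes 9.08% were called, 3.48% higher and 5.60% lower. In 3 members, Traf1, Traf4 and Prkci, the test gave an unadjusted p below 0.05. Over all tested genes this share was 32.5%, close to the 3 of 9 members. DESeq2 called 1 member, Traf4, as lower, as it did 11.0% of all tested genes. Limma-voom called 0 members and 8.13% of all tested genes. The median log2 fold change of the 9 members was -0.05, against 0.02 over all tested genes. In bulk RNA, fewer cells of a type and less RNA per cell cannot be told apart.

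In 4 members the groups did not overlap in normalised CPM, against 36.3% of tested genes. Traf2 and Prkci were higher in the knockout libraries, 2 of 9 against 17.2% of tested genes, and Traf1 and Traf4 were lower, 2 of 9 against 19.0%. Their promoters are shown here because these members are the ones whose 3 knockout libraries all lay on the same side of the parental range. Each runs from 250 bases before to 50 bases after the RefSeq start site, 5′ to 3′, in build GRCm38.p6. Capitals mark the GC box GGGCGG and the CCAAT box CCAAT on either strand.
Traf4 promoter (chr11:78165501-78165800, minus strand): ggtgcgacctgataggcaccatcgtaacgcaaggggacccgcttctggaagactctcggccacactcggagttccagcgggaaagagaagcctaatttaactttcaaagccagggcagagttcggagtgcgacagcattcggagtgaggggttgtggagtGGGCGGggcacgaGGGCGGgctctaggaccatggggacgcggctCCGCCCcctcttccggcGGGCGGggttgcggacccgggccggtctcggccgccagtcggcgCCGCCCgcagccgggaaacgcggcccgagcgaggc
Prkci promoter (chr3:30995521-30995820, plus strand): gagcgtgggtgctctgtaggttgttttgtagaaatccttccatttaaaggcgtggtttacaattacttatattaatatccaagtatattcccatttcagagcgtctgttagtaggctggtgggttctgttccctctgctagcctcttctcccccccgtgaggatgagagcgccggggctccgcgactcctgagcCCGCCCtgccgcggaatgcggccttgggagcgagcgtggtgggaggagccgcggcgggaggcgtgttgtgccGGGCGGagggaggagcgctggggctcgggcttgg
Traf1 promoter (chr2:34961723-34962022, minus strand): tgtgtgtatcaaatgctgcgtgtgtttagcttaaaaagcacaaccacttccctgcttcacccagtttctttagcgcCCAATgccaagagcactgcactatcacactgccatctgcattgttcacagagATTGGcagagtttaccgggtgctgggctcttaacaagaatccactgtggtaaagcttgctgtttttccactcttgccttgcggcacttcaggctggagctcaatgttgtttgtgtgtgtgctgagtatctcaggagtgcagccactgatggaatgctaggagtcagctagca
Traf2 promoter (chr2:25546891-25547190, minus strand): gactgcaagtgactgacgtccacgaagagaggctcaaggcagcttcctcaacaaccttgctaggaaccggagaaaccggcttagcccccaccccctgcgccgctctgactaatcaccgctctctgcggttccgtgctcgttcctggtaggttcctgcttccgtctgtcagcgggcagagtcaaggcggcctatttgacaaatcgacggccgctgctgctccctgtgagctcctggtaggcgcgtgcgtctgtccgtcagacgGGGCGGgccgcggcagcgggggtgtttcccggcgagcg
The Traf4 promoter held 33 CpG dinucleotides and 5 GC boxes, and that of Prkci 22 CpG and 2 GC boxes. The Traf1 promoter was different in make-up, with 4 CpG, no GC box and 2 CCAAT boxes, and its GC content was 48.7% against 68.0% for Traf4. The Traf2 promoter held 28 CpG and 1 GC box. Over 32851 mouse promoters of the same length the median was 7 CpG, 35.7% held a GC box and 37.4% a CCAAT box. All 9 members matched this RefSeq table, with 11 start sites. Among them the CpG count ran from 4 for Traf1 to 59 for Traf3, and Traf1 was the only member without a GC box at its first listed start site. Neither a TATA box (TATAAA) nor an AP-1 motif (TGANTCA) was found in any of the 11, while 13.6% and 7.81% of all promoters held them. These matches are letters in a window and say nothing of which factors bind there.

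Traf4 (ENSMUSG00000017386) was by far the most abundant member and had the smallest p. It encodes a TRAF protein best known from epithelial cells and carcinomas. Its level was 171, 192 and 172 TPM in parental replicates 1 to 3 and 129.5, 129.5 and 131 TPM in knockout replicates 1 to 3. The knockout libraries were close together and all below the lowest parental library. On the normalised scale it stood at 146 ± 7.66 CPM in parental and 112 ± 3.51 CPM in knockout cells (SD, n = 3 each), 1.30-fold lower. This is a log2 fold change of -0.38 ± 0.11 with a 95% interval of -0.64 to -0.13 (edgeR adjusted p = 0.0684, error as SE). It stayed between -0.43 and -0.34 in all 14 other settings, and passed the threshold by DESeq2 (adjusted p = 0.0248) and by edgeR without knockout replicate 2 (log2 fold change -0.40, adjusted p = 0.0149).

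Traf1 (ENSMUSG00000026875) encodes a TRAF protein that lacks the RING domain and is a known NF-kB target. It was at 9.99, 11.1 and 15.9 TPM in parental cells and at 9.01, 5.09 and 7.52 TPM in knockout cells. The gap between the groups was narrow, from 9.01 to 9.99 TPM, and the parental libraries spread widely. In log2 units the difference was -0.72 ± 0.29, with an edgeR adjusted p of 0.134, the largest in size of the 9. It was -0.44 without parental replicate 3, the highest library, and it missed the threshold in all 14 other settings. Knockout replicate 2, which kept the most Sqstm1 of the knockout libraries, had the lowest Traf1.

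Traf2 (ENSMUSG00000026942) is the adaptor that brings the cIAP ligases to TNF receptors. It stood at 28.5, 30.4 and 30.4 TPM in parental libraries and 32.5, 30.6 and 33.4 TPM in knockout libraries. The groups nearly touched, and the log2 fold change was 0.18 ± 0.13 (SE; 95% interval -0.12 to 0.48; edgeR adjusted p = 0.357). Traf3 (ENSMUSG00000021277), which restrains the alternative NF-kB pathway by holding the kinase NIK for degradation, was at 31.7, 28.6 and 26.6 TPM in parental and 29.4, 33.4 and 28.3 TPM in knockout libraries. These ranges overlapped, with a log2 fold change of 0.14 ± 0.13 (SE; 95% interval -0.16 to 0.45; edgeR adjusted p = 0.465).

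Traf6 (ENSMUSG00000027164) is the ubiquitin ligase of Toll-like and interleukin-1 receptor signalling, and the TRAF that p62 binds. Its level was 17.2, 15.8 and 13.9 TPM in parental replicates 1 to 3. In knockout replicates 1 to 3 it was 11.9, 19.9 and 11.2 TPM. Knockout replicates 1 and 3 lay below all parental libraries and knockout replicate 2 above all of them, so the fitted change was near zero, at -0.05 ± 0.24 (log2, SE; 95% interval -0.63 to 0.52; edgeR adjusted p = 0.9). Without knockout replicate 2 the estimate was -0.39 ± 0.11 in log2 units (SE), at an edgeR adjusted p of 0.0265. Its sign was positive when parental replicate 1 was left out, and likewise for either of knockout replicates 1 and 3.

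Traf5 (ENSMUSG00000026637) was the least abundant member, with 36 to 85 reads per library. It is best known in lymphocytes. It was at 2.45, 1.85 and 1.36 TPM in parental and 2.06, 0.948 and 1.97 TPM in knockout libraries, ranges that overlapped. The fit gave -0.12 ± 0.38 in log2 units (SE; 95% interval -1.02 to 0.79; edgeR adjusted p = 0.85), and its sign turned in 2 of 13 other settings. Knockout replicate 2 was the lowest of the 6 libraries, while knockout replicates 1 and 3 differed by 0.0042 in log2 CPM. In GENCODE M21 an antisense gene overlaps 205 bases of its exons, and the strand setting of the counting is not given in the sources used here.

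**Figure D1:**
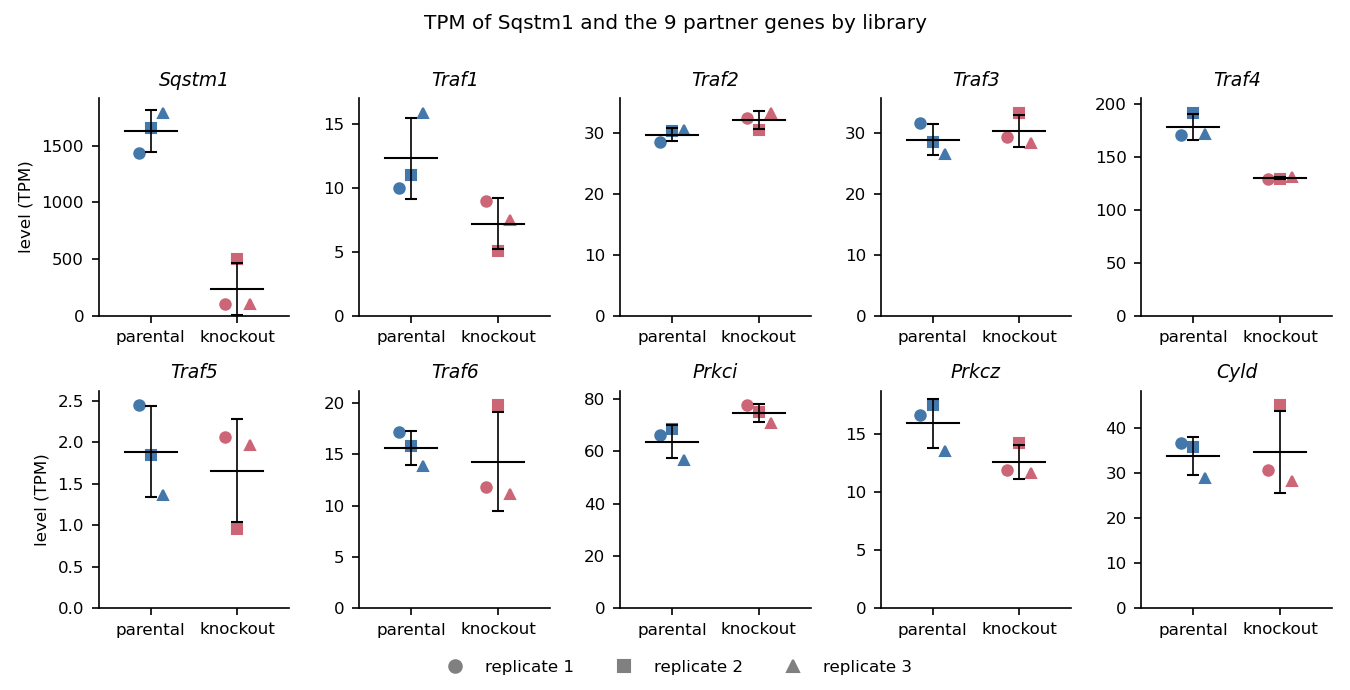
Level in TPM (vertical axes, each starting at 0) of Sqstm1 and the 9 partner genes in the 3 parental (blue) and 3 knockout (red) libraries, with markers for replicates and black lines for the mean ± SD. Sqstm1, Traf1, Traf2, Traf4 and Prkci do not overlap between groups. In Traf6 and Cyld knockout replicate 2 is the highest of the 6 libraries.

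The TRAF family as a whole was dominated by Traf4. Traf4 held 65.5%, 68.7% and 66.1% of the summed TRAF TPM in parental replicates 1 to 3 and 60.4%, 59.0% and 61.5% in knockout replicates 1 to 3. The sum itself was 260, 279.99 and 261 TPM in parental and 214, 219 and 214 TPM in knockout libraries, again with no overlap. Of the difference in mean sum of 51.2 TPM, the difference in Traf4 was 48.3 TPM. Traf2 held 11.2% ± 0.459 of the sum in parental and 14.9% ± 0.868 in knockout cells (SD, n = 3 each), and Traf3 10.9% ± 1.12 and 14.1% ± 1.04. In mean TPM, Traf2 and Traf3 were higher by only 2.39 and 1.42 in knockout cells. Shares of the same sum are not independent, and a lower Traf4 by itself raises the other shares. The shares of Traf1, Traf5 and Traf6 overlapped between groups. For each of the Traf2, Traf3 and Traf4 shares the exact two-sided permutation p was 0.1, the smallest that 3 against 3 libraries can give (0.175 adjusted over 7 shares).

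**Figure D2:**
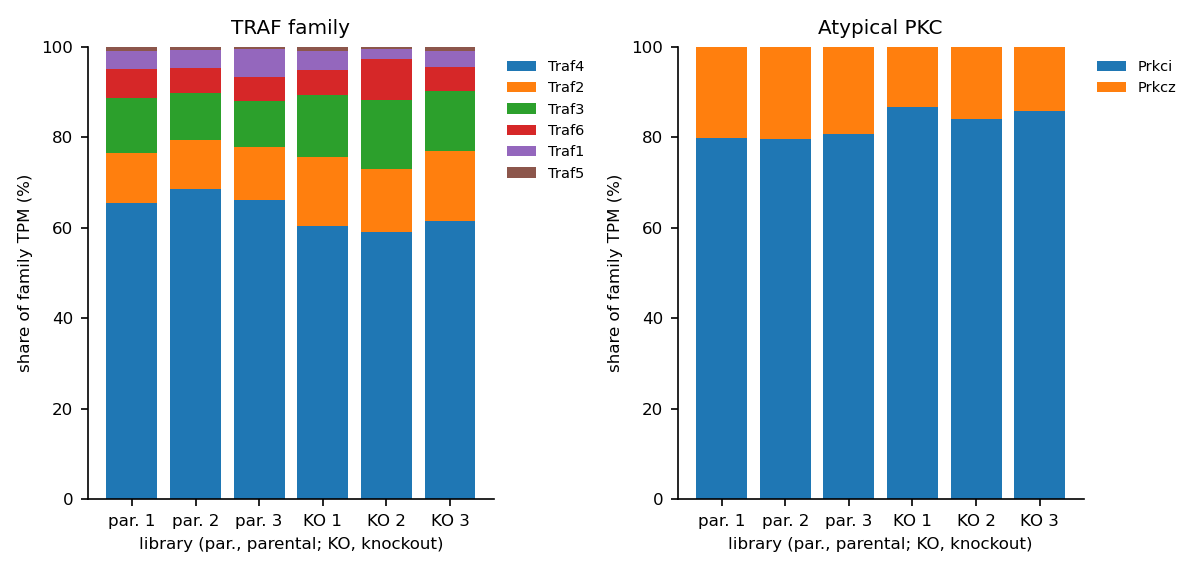
Share of the summed TPM (vertical axis, percent) held by each TRAF gene (left) and by each atypical PKC gene (right) in each library. Traf4 takes 59.0% to 68.7% of the TRAF sum, and Prkci takes 79.6% to 86.7% of the atypical PKC sum, with the higher Prkci shares in the knockout libraries.

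Of the atypical PKC genes, Prkci was above and Prkcz mostly below its parental range in the knockout libraries, and neither passed the test. Prkci (ENSMUSG00000037643) encodes PKC iota, the polarity kinase often amplified in human squamous carcinomas. It was at 66.1, 68.4 and 56.6 TPM in parental and at 77.8, 75.2 and 71.0 TPM in knockout libraries, with all knockout values above the parental range. The means were 123 ± 6.55 and 152 ± 4.38 CPM (SD, n = 3 each), 1.23-fold higher in the knockout libraries. In log2 units this is 0.30 ± 0.11, with a 95% interval of 0.05 to 0.56 and an edgeR adjusted p of 0.107 (error as SE). It stayed between 0.26 and 0.33 in all 14 other settings and passed the threshold in 1, without knockout replicate 2 (adjusted p = 0.0405).

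Prkcz (ENSMUSG00000029053) encodes PKC zeta, the other atypical isoform and a known p62 partner. Its level was 16.7, 17.5 and 13.6 TPM in parental replicates 1 to 3 and 11.9, 14.2 and 11.6 TPM in knockout replicates 1 to 3. Only knockout replicate 2 lay within the parental range. Its fitted log2 difference was -0.26 ± 0.15 (SE; 95% interval -0.62 to 0.10; edgeR adjusted p = 0.273), and -0.39 ± 0.12 without knockout replicate 2 (SE; edgeR adjusted p = 0.0348). Prkci held 79.8%, 79.6% and 80.7% of the atypical PKC TPM in parental and 86.7%, 84.1% and 85.9% in knockout libraries. This share did not overlap between groups (exact two-sided permutation p = 0.1, the smallest possible; 0.175 adjusted over 7 shares). In ratio, Prkci was 3.90 to 4.18 times Prkcz in parental and 5.28 to 6.54 times in knockout libraries.

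Cyld (ENSMUSG00000036712), the deubiquitinase that opposes TRAF signalling, was at 36.6, 35.8 and 28.9 TPM in parental replicates 1 to 3. In knockout replicates 1 to 3 it was at 30.7, 45.1 and 28.1 TPM. Knockout replicate 2 was the highest of the 6 libraries, while replicate 1 lay within and replicate 3 just below the parental range. The estimate was 0.11 ± 0.20 in log2 units (SE; 95% interval -0.36 to 0.59; edgeR adjusted p = 0.719). Its sign turned without knockout replicate 2, to -0.15 ± 0.10 (SE; edgeR adjusted p = 0.258).

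Across the 9 genes, Traf4 and Prkci were first and second in level in every library, and Traf5 last. In parental cells the means were 178 ± 12.0 TPM for Traf4, 63.7 ± 6.21 for Prkci and 33.7 ± 4.22 for Cyld. Traf2 (29.8 ± 1.10) and Traf3 (28.9 ± 2.55) differed by less than their spread and changed places between libraries. The range of Cyld overlapped both, though Cyld was above Traf3 in each parental library. Prkcz (15.9 ± 2.08) and Traf6 (15.6 ± 1.65) were alike too, and Traf1 (12.3 ± 3.17) overlapped them. Traf5 stood at 1.89 ± 0.548 TPM (SD, n = 3 for each gene). Among all tested genes Traf4 lay at the 93.7th percentile of parental TPM, Prkci at the 79.1st and Traf1 at the 37.9th.

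The members fell into different patterns over the knockout libraries. In Traf4 and Prkci knockout replicate 2 was within 0.02 and 0.05 log2 CPM of the mean of knockout replicates 1 and 3. In Traf6 and Cyld it was 0.81 and 0.65 higher, in Sqstm1 2.28 higher, and in Traf1 and Traf5 0.64 and 0.76 lower. Over all tested genes the median size of this gap was 0.41, and 20.0% and 29.4% of genes had a gap at least as large as Traf6 and Cyld. Knockout replicates 1 and 3 differed from each other by 0.19 at most in any member, in Traf1.

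**Figure D3:**
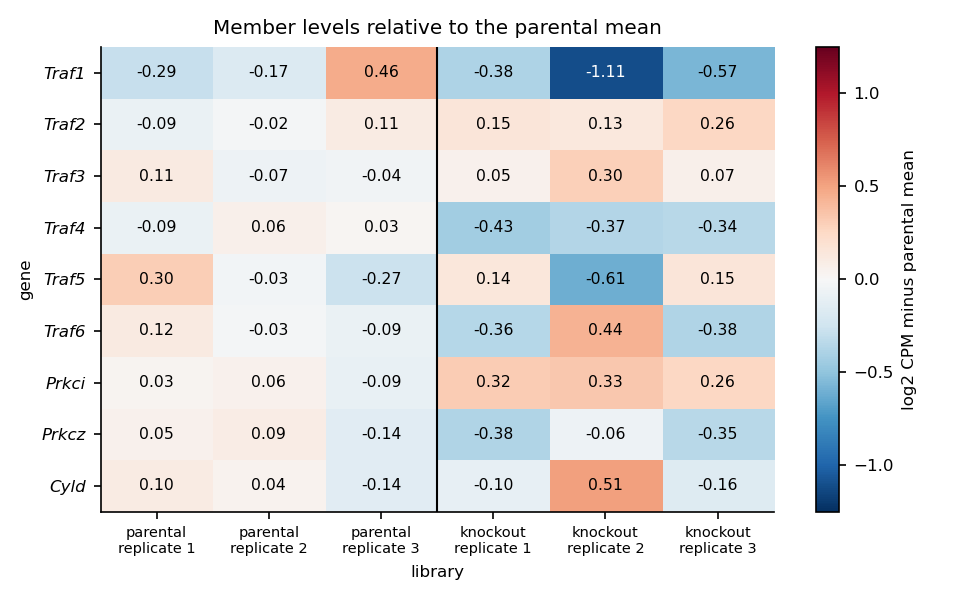
Level of each member in each library as log2 CPM minus the mean of the 3 parental libraries (colour and printed value). Traf4 is lower and Prkci higher by similar amounts in all 3 knockout libraries, while Traf6 and Cyld are higher in knockout replicate 2 and lower in replicates 1 and 3.

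Leaving out knockout replicate 2 changed which members were called. Then 3 members were lower (Traf4, Traf6 and Prkcz) and 1 was higher (Prkci), with 5 not passing. In the same 5 libraries 46.2% of 12942 tested genes were called, 23.2% lower and 23.0% higher. The remaining members, Traf1, Traf2, Traf3, Traf5 and Cyld, had edgeR adjusted p-values of 0.133 to 0.732 there. Leaving out any other single library called 0 members. Those fits called few genes at all, from 0 of 12924 tested (without parental replicate 2) to 403 of 12913 (without parental replicate 1).

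**Figure D4:**
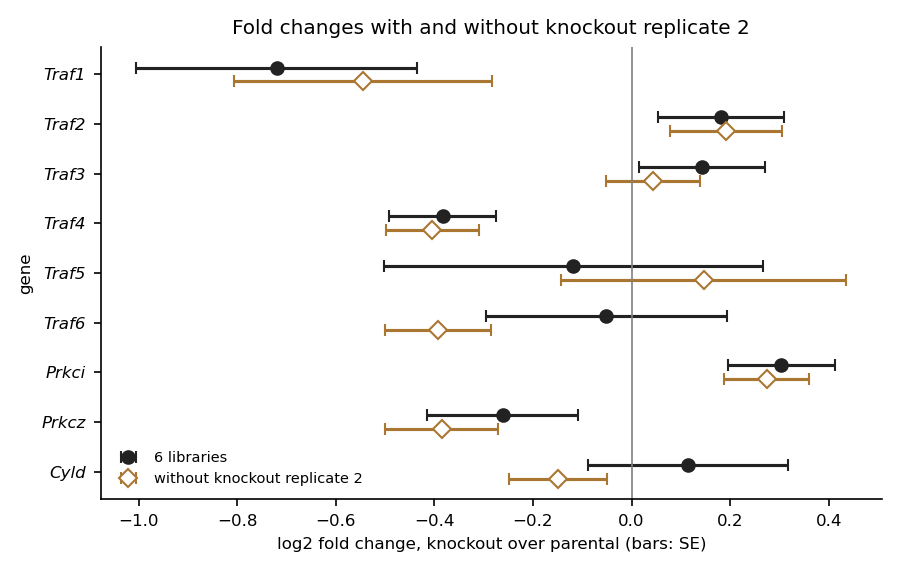
Log2 fold change, knockout over parental (horizontal axis), with bars for the SE, from all 6 libraries (filled circles) and without knockout replicate 2 (open diamonds). Traf4 and Prkci hardly move, Traf6 goes from -0.05 to -0.39, and Traf5 and Cyld change sign.

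The genes whose profile over the 6 libraries was most like that of Traf4 were Vapa, Plekhh3 and Tmem259. Vapa, which encodes a membrane contact protein of the endoplasmic reticulum, had a root mean square difference of 0.0312 in centred log2 CPM, and Plekhh3 and Tmem259 had 0.0403 and 0.0450. The median over 10105 genes compared was 0.335. Like Traf4, none of them passed the test, with edgeR adjusted p-values of 0.0628 to 0.0735. They were picked for likeness over these same 6 libraries, so p-values near that of Traf4 follow from the choice.

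Genes that act beside the members were read from 6 lists. Of the 77 tested, edgeR called 2 higher and 2 lower, where it called 3.48% and 5.60% of all tested genes. Receptors that recruit TRAF proteins had 0 of 16 called by edgeR, 6 of 16 at an unadjusted p below 0.05 (32.5% of all tested genes) and a median log2 fold change of 0.10 (0.02 over all). DESeq2 called 2 of them higher, where it called 11.6% of all tested genes higher, and limma-voom called 0. The smallest p was that of Tlr3, the double-stranded RNA receptor, at 21.0, 24.0 and 20.5 CPM in parental and 48.8, 27.3 and 43.6 CPM in knockout libraries. All knockout libraries were above the parental range, at a log2 fold change of 0.87 ± 0.23 (SE; edgeR adjusted p = 0.0598).

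Of 23 tested adaptors and kinases of TRAF complexes, 2 were higher, 0 lower and 21 did not pass. Of all tested genes 3.48% were higher and 5.60% lower. The median log2 fold change of the list was 0.003. Myd88, the adaptor that links Toll-like and interleukin-1 receptors to the IRAK kinases and TRAF6, rose from 13.9 ± 0.673 to 24.4 ± 0.871 CPM (SD, n = 3; log2 fold change 0.81 ± 0.14, SE; edgeR adjusted p = 0.0247). Its parental libraries were at 14.1, 13.2 and 14.5 CPM and its knockout libraries at 24.5, 25.2 and 23.4 CPM, so knockout replicate 2 was like the others. Map3k7, the TAK1 kinase activated downstream of TRAF6, rose from 80.9, 69.3 and 57.1 CPM to 121, 119 and 113 CPM (log2 fold change 0.77 ± 0.15, SE; edgeR adjusted p = 0.0328). Tab1, Tab2 and Tab3, which encode its binding partners, did not pass, with log2 fold changes of -0.53, -0.19 and -0.005. Tab1 was lower in all knockout libraries, at 39.5 ± 4.28 and 27.4 ± 2.48 CPM (SD, n = 3, edgeR adjusted p = 0.0668), while Tab2 and Tab3 overlapped between groups. Exons of Acaa1a overlap 290 bases of those of Myd88 on the opposite strand, and Acaa1a stood at 55.6 ± 6.96 and 51.7 ± 7.86 CPM. Both calls were lost with the replicate number as a block and without parental replicate 2 or 3 or knockout replicate 1 or 3, that of Myd88 also without parental replicate 1. The adjusted p reached at most 0.162 and 0.167, while the log2 fold change stayed at 0.76 to 0.85 for Myd88 and 0.66 to 0.89 for Map3k7 over all 14 other settings.

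Of 13 ubiquitin enzymes and cofactors around CYLD, 1 was lower, 0 higher and 12 did not pass. Of all tested genes 5.60% were lower and 3.48% higher. The lower gene was Rnf31, the catalytic subunit HOIP of the linear ubiquitin ligase whose chains CYLD also cuts. It fell from 55.3, 60.6 and 66.1 CPM in parental to 22.8, 33.5 and 25.6 CPM in knockout libraries (log2 fold change -1.15 ± 0.18, SE; edgeR adjusted p = 0.021). Its partner subunits Rbck1 and Sharpin did not pass, with log2 fold changes of -0.11 and -0.05. In GENCODE M21 the exons of Rnf31 share 123 bases with those of Irf9 on the same strand, and Irf9, a factor of interferon signalling, fell from 45.2 ± 4.18 to 12.0 ± 4.89 CPM (edgeR adjusted p = 0.0185). Reads in the shared bases cannot be told apart. The Rnf31 call was lost without parental replicate 2 or 3 and without knockout replicate 1 or 3, at an adjusted p of up to 0.135, with a log2 fold change of -1.34 to -1.02 over all 14 other settings.

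Of 16 polarity and PB1 partners of the atypical PKCs, 1 was lower, 0 higher and 15 did not pass. Of all tested genes 5.60% were lower and 3.48% higher. The median log2 fold change of the list was -0.04. Llgl1, a polarity protein that PKC iota and zeta phosphorylate, fell from 164, 187 and 207 CPM to 132, 120 and 133 CPM (log2 fold change -0.54 ± 0.13, SE; edgeR adjusted p = 0.048). This call was lost in 8 of 14 other settings, among them limma-voom and no filter on low counts, at an adjusted p of up to 0.201, with a log2 fold change of -0.63 to -0.45 over all 14. Its exons share 64 bases with Flii on the opposite strand, which stood at 258 ± 31.8 and 221 ± 17.9 CPM. The PAR6 and PAR3 genes, whose proteins form the polarity complex with the atypical PKCs, did not pass. Pard6a was lower in all knockout libraries, at 16.6 ± 1.17 and 12.4 ± 1.00 CPM (SD, n = 3 each; edgeR adjusted p = 0.115). Pard6b, Pard6g, Pard3 and Pard3b had log2 fold changes of -0.23, 0.09, -0.09 and 0.70. In the list 5 of 16 genes were lower in all knockout libraries and 2 higher, against 19.0% and 17.2% of all tested genes. Map3k2, Map3k3 and Nbr1 were among the lower ones, with log2 fold changes of -0.72, -0.46 and -0.75 (edgeR adjusted p = 0.103, 0.0998 and 0.113).

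Of the 5 tested PKC isoforms outside the atypical group, 0 were called by edgeR, 2 had an unadjusted p below 0.05 (32.5% of all tested genes), and all 5 had a negative sign (48.3% of all tested genes), with a median log2 fold change of -0.45. Whether the list differs from other genes was not tested. DESeq2 called 1 lower (11.0% of all tested genes) and limma-voom 0. Without knockout replicate 2, edgeR called 4 of 5 lower, against 23.2% of all genes tested there. Prkcd, PKC delta, had the smallest p, at 82.4 ± 7.48 and 58.8 ± 8.66 CPM (SD, n = 3; edgeR adjusted p = 0.0824). Of 4 other genes with TRAF in their name, 0 were called by edgeR, 3 had an unadjusted p below 0.05 (32.5% of all tested genes), and DESeq2 called 1 higher (11.6% of all tested genes) and limma-voom 0. Traip, a ubiquitin ligase of DNA replication, had the smallest p, at 2.87, 5.67 and 5.34 CPM in parental and 26.5, 6.03 and 30.8 CPM in knockout libraries (edgeR adjusted p = 0.0625). Knockout replicate 2 was only just above the parental range.

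**Figure D5:**
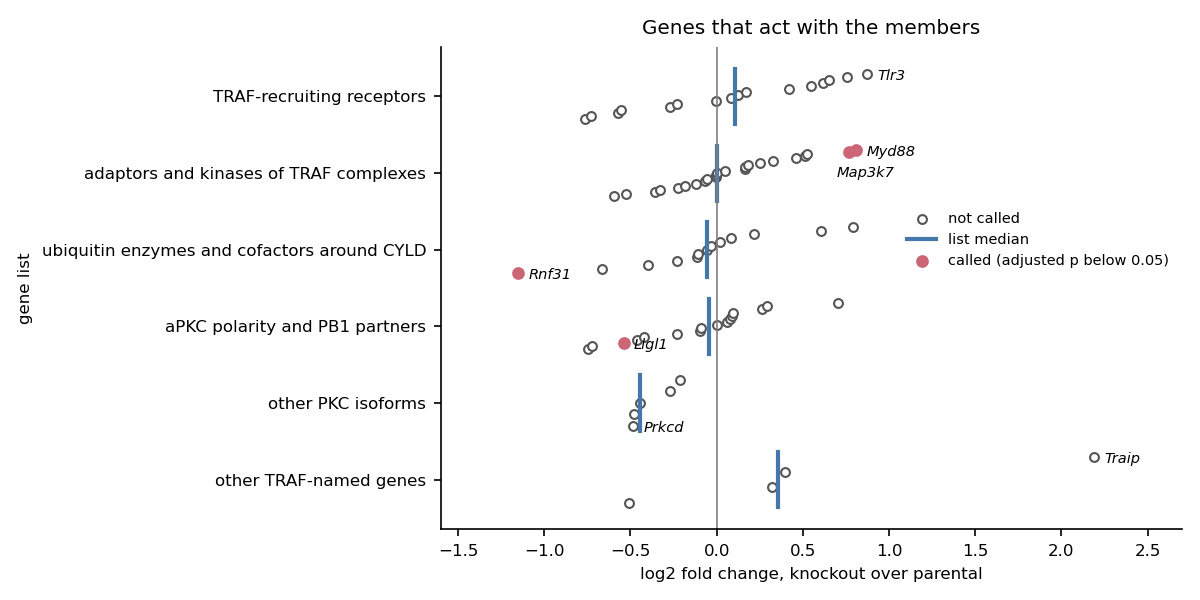
Log2 fold change, knockout over parental (horizontal axis), of each tested gene in the 6 lists of genes that act with the members, with list medians as blue lines and called genes as filled red points. The 4 called genes are Myd88 and Map3k7 on the higher side and Rnf31 and Llgl1 on the lower side.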

How the data were processed

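For every gene of 1 library, a deposited table gives the total and the unique exon reads, the exon length and a TPM, per the file headers. The authors' counts are whole exon reads per gene, not normalized. The authors' TPM values are those reads per exon length, scaled to a fixed sum, per the file headers and a recomputation. Per the submitters' processing notes, reads were placed on GRCm39. Not given in the sources used here are the aligner, the counter, its annotation and its strand setting. For the 9 members all reads were listed as unique.

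Total exon reads were tested with edgeR 4.0.16 (quasi-likelihood, R 4.3.3) on group alone, after filterByExpr and TMM scaling. Benjamini-Hochberg adjustment ran over 12775 genes, with a threshold of 0.05. CPM values are TMM-normalized, fold changes are knockout over parental, and the SE comes from the F statistic. Levels of different genes are compared in TPM. A count of 0 allows up to 3 reads, or 0.0735 to 0.0917 CPM, for counting error only. Other settings were no filter, RLE or upper quartile scaling, a filter of 5 CPM in 3 libraries, DESeq2 1.42.0, limma-voom (limma 3.58.1), unique reads, a block for the replicate number, and each library left out in turn.

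From each list up to 2 called genes per direction with the largest change are named, or the gene with the smallest p. Others are named for their tie to a member and were chosen after their values were seen. Likeness was taken for the member with the smallest p, over genes of at least 5 CPM. The members and lists were chosen with earlier results of these data known. Promoters are RefSeq's, in GRCm38.p6, and overlaps are from GENCODE M21, both of an older build than the counts.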

Additional observations from a re-analysis of the deposited data

How the results depend on the processing

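Traf1, Traf2, Traf3, Traf4, Prkci and Prkcz kept their sign in all 14 other settings. With Sqstm1, the adjusted p was 0.0502 with RLE scaling (log2 fold change -2.70) and 0.0547 with the 5 CPM filter (-2.72). DESeq2 called 1479 genes higher and 1402 lower and 1 member lower, Traf4 (-0.38), with 6 context genes higher and 6 lower. Of the context genes, 1 was lower without a filter and 1 with limma-voom. The cause was not tested.

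The correlations of deviations from the group mean were -0.42, -0.13 and 0.35 for the same replicate numbers 1 to 3. For unlike numbers they ran from -0.40 to 0.43. Knockout replicates 1 and 3 gave nearly the same correlations and replicate 2 the reverse, so these values cannot tell whether the libraries were paired. With the replicate number as a block, edgeR called 54 genes higher and 203 lower, 0 members, and 0 context genes higher and 1 lower.

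Leaving out single libraries gave these ranges of log2 fold change: -3.93 to -2.32 for Sqstm1, -0.88 to -0.44 for Traf1, -0.43 to -0.34 for Traf4, -0.28 to 0.15 for Traf5, -0.39 to 0.10 for Traf6, 0.27 to 0.33 for Prkci, -0.39 to -0.19 for Prkcz and -0.15 to 0.24 for Cyld. Reversed signs were 0.09 (without parental replicate 1) and 0.15 (without knockout replicate 2) for Traf5, 0.01, 0.10 and 0.09 (without parental replicate 1, knockout replicate 1 and knockout replicate 3) for Traf6, and -0.15 (without knockout replicate 2) for Cyld. Genes called higher ranged from 0 to 2972 and lower from 0 to 3001, members from 0 to 1 higher and 0 to 3 lower, and context genes from 0 to 11 higher and 0 to 18 lower. The lowest counts came without parental replicate 2, where edgeR called 0 genes and 2494 had an unadjusted p below 0.05. The highest came without knockout replicate 2. These fits hold 5 libraries each.

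By CPM in place of TPM, the share of the TRAF family was 2.82 percentage points higher in knockout cells for Traf2 and 5.45 for Traf3, against 3.75 and 3.20 in TPM. Traf5 had the fewest reads of the members, 36 to 85 per library, and the part of depth in its spread was not tested.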
